A study of Mus musculus with 9 samples.

Results

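Transcripts of fatty acid oxidation and of the switch between fat and glucose as fuel were followed in 3 kinds of sorted mouse epithelial cell. The 8 genes described are Acsl1, Cpt1a, Cpt2, Acadm, Acadl, Ehhadh, Acot1 and Pdk4. They were chosen by name, as every non-control array probe annotated to one of these symbols or to a synonym. They are 8 of 28475 gene names on the array and are read by 11 of its 41174 probes. No enzyme of ketone body synthesis is among the 8, so ketone body genes were taken from a separate list of 7.

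The series profiled epithelial cells of C57BL/6 mice on 9 single-colour Agilent arrays, 3 for each of 3 groups. EDTA freed the cells of the small intestine, and surface staining divided them into an Epcam-high, MHC class II-high group (MHCIIhi) and an Epcam-intermediate, MHC class II-intermediate group (titled MHCIIlo). Kidney tissue was digested by collagenase, dispase and DNase, and its Epcam-positive cells were taken. All 3 groups were negative for CD45, which marks leukocytes, and for the dead-cell dye Fluorogold, and no group carried a named allele or treatment. The pools held 3 mice per replicate for intestine and 4 mice for kidney. A pool averages over its animals, so differences between single mice were not measured.

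Fatty acids are burned as acyl-CoA esters. Long-chain acyl-CoA synthetases such as Acsl1 make the ester, carnitine palmitoyltransferases Cpt1a and Cpt2 carry the acyl group across the outer and inner mitochondrial membranes, and acyl-CoA dehydrogenases such as Acadl and Acadm begin each round of beta-oxidation. Peroxisomes shorten some acyl chains with their own enzymes, among them Ehhadh. Acyl-CoA thioesterases such as Acot1 release the free fatty acid again, and Pdk4 blocks pyruvate dehydrogenase, which limits the entry of glucose carbon into the citric acid cycle. Many of these genes are known targets of the fatty acid receptor PPAR alpha. Absorptive enterocytes of the intestine take up and re-esterify dietary fat, and the proximal tubule is the nephron segment best known for relying on fatty acid oxidation.

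The promoter windows of 4 of the genes are shown because, among the 8, they carry the largest differences or are called most often (Acot1, Pdk4, Cpt1a) or 1 of the 2 half-sites found (Cpt1a, Acadm). Each is the 250 bases upstream of a RefSeq start on GRCm38.p6, read 5′ to 3′ on the strand of the gene. Capitals mark AGGTCA, the nuclear receptor half-site (TGACCT where it lies on the opposite strand), and the CCAAT box (ATTGG on the opposite strand). The windows are chr12:84009252-84009501 (plus strand) for Acot1, chr6:5496279-5496528 (minus strand) for Pdk4, chr19:3323051-3323300 (plus strand) for Cpt1a and chr3:153944644-153944893 (minus strand) for Acadm.
Acot1: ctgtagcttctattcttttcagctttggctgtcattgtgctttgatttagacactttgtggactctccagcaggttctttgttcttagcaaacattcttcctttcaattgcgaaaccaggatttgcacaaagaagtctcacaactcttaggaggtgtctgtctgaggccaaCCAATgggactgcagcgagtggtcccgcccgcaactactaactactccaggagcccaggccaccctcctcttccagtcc
Pdk4: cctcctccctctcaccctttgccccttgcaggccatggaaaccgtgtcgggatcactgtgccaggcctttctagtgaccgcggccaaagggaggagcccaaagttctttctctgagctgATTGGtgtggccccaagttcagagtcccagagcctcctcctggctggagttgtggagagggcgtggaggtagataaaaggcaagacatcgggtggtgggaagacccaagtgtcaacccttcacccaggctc
Cpt1a: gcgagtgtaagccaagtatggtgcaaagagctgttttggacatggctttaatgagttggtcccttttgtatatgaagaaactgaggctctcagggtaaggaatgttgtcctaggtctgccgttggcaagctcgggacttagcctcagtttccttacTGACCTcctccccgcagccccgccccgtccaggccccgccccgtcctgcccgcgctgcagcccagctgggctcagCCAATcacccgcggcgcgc
Acadm: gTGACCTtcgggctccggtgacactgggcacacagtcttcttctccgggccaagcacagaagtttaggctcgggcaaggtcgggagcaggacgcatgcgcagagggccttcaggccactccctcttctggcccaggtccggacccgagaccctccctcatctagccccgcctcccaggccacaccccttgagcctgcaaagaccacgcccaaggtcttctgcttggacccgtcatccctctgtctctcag

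All 8 genes matched a promoter in the RefSeq table, with 9 windows in all, because Acsl1 has 2 start sites. Both strands were searched. AGGTCA occurred in 2 of the 9 windows, those of Cpt1a (base -94) and Acadm (base -249), against 14% of 32851 windows of this length. CCAAT occurred in 5 of 9, against 33.8%, at base -79 in Acot1, -131 in Pdk4 and -19 in Cpt1a. The GC box GGGCGG occurred in 6 of 9, against 32.7%. TATAAA (12.4% of all windows) was in 0 of 9, and so was the direct repeat of the AGGTCA half-site with 1 base between (0.0335% of all windows), which contains that half-site and is the usual form of a PPAR element. The Acot1 window held 4 CpG dinucleotides and the Pdk4 window 6, equal to the median of 6 over all windows, whereas the Acadm and Cpt1a windows held 12 and 14. These are counts of letters in short windows and say nothing of binding, and an element farther off was not searched for. Only exact matches were counted, so an imperfect copy of the repeat within a window would be missed.

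Levels are given as log2 of the scanner's processed signal minus the 75th percentile of the array, so a level of 0 is the 75th percentile and a step of 1 is a doubling. The 75th percentile itself ranged from 104 to 791 intensity units and was lowest on the MHCIIlo arrays, and 51.0 to 73.2% of spots were well above background. The 11 probes were all well above background on all 9 arrays. Array values of different genes come from different probes and were not set against each other. The labelled organs were checked by markers, and the sort markers Epcam and MHC class II were not examined here. Ptprc, which encodes the CD45 that the sort excluded, was well above background on all 9 arrays, at -3.52 to -1.55 in MHCIIhi, -1.85 to -1.19 in MHCIIlo and -1.17 to -0.77 in kidney. The summed linear level of 13 enterocyte markers (in multiples of the array's 75th percentile) was 1066 to 2458 in MHCIIhi, 3541 to 5240 in MHCIIlo and 12.9 to 33.7 in kidney, where Sis, Apoa1 and Rbp2 were not well above background on any array. In kidney all 12 proximal tubule markers, all 8 of the thick ascending limb and distal tubule and all 10 of the collecting duct were well above background on each array. So were 7 of 8 markers of endothelium and podocytes, all 7 called higher than in MHCIIhi, with a summed level of 20.2 to 46.2 in kidney and at most 0.505 in intestine, and their part in the kidney differences was not tested. MHCIIhi 1 and 2 lay on 1 slide, MHCIIhi 3 and the 3 MHCIIlo arrays on another, and the kidney arrays on the third, so slide and organ cannot be told apart in the kidney comparisons. Both kidney comparisons use the same 3 kidney arrays and are not independent of each other.

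A gene was called where limma's Benjamini-Hochberg adjusted p over all 19991 genes tested was below 0.05 and the log2 difference was at least 1 in size. Kidney cells had the higher level for most of the 8 genes. Against MHCIIhi, 6 of 8 were called higher and 0 lower, where 25.6% of all genes were called higher and 22.8% lower. In all, 48.4% of genes were called. The 6 were Acsl1, Cpt1a, Acadm, Acadl, Acot1 and Pdk4. Against MHCIIlo, 5 of 8 were called higher (Acsl1, Cpt1a, Acadl, Acot1, Pdk4) and 1 lower (Cpt2), where 29.8% of all genes were called higher and 27.8% lower (57.6% in all). Between the intestinal groups, 2 of 8 were called higher in MHCIIhi (Acot1 and Cpt1a) and 0 lower, against 14.9% and 16.1% of all genes (31% in all). By limma at an unadjusted p under 0.05, 2 of the 8 were lower in MHCIIhi than in MHCIIlo and 1 was lower in kidney than in MHCIIhi. At an adjusted p below 0.05 with no demand on size, Cpt2 was lower in MHCIIhi as well.

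The median difference of the 8 genes was 1.55 for kidney minus MHCIIhi and 1.80 for kidney minus MHCIIlo, where the medians of all genes were -0.02 and 0.04. For MHCIIhi minus MHCIIlo it was -0.19, beside -0.24 for all genes. Arrays of the compared groups did not overlap for 7 of the 8 genes in each kidney comparison, Ehhadh being the exception. In both, 6 of those 7 were higher in kidney, where 36.1% of all genes against MHCIIhi and 39.6% against MHCIIlo stood wholly higher in kidney. The remaining one, Cpt2, stood wholly lower, as did 36.1% and 38.5% of all genes. The intestinal groups did not overlap for 6 genes, 2 of them higher in MHCIIhi and 4 lower, where 23.7% and 32.7% of all genes stood wholly higher and wholly lower.

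**Figure D1:**
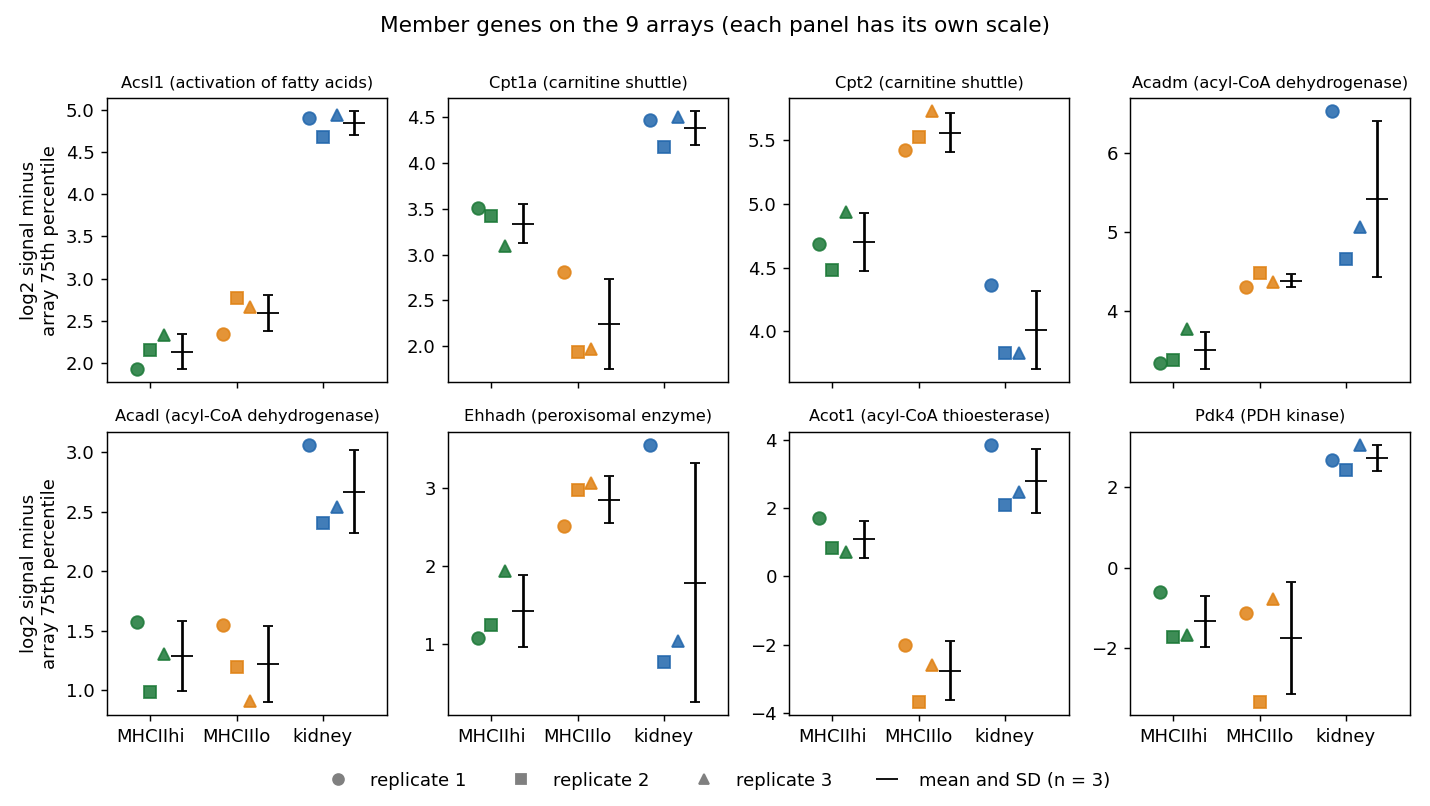
Level of each of the 8 genes on every array, in log2 units above the 75th percentile of the array, with 1 panel a gene on its own scale. Circles, squares and triangles are replicates 1, 2 and 3, and the black bars are the mean and SD of 3 arrays. The kidney arrays lie above all intestinal arrays for Acsl1, Cpt1a, Acadm, Acadl, Acot1 and Pdk4 and below them for Cpt2, while kidney 1 stands apart from the other kidney arrays for Ehhadh (3.56 against 0.76 and 1.04).

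Acsl1, a synthetase that activates long-chain fatty acids, was higher in kidney than in either intestinal group. It stood at 1.93, 2.15 and 2.33 for MHCIIhi 1 to 3, 2.35, 2.77 and 2.67 for MHCIIlo 1 to 3 and 4.90, 4.68 and 4.94 for kidney 1 to 3. The kidney arrays lay far above the rest, and the MHCIIlo arrays lay above the MHCIIhi arrays, by as little as MHCIIlo 1 (2.35) over MHCIIhi 3 (2.33). Kidney exceeded MHCIIhi by 2.70 ± 0.19 (SE; 6.50-fold; limma adjusted p = 3.36e-06) and MHCIIlo by 2.25 ± 0.19 (4.74-fold; adjusted p = 8.05e-06). The intestinal groups differed by -0.46 ± 0.19, with a 95% interval of -0.88 to -0.03 and an adjusted p of 0.0693, which missed the threshold. The other 2 Acsl1 probes gave the same order, with kidney minus MHCIIhi at 2.55 and 2.63 and kidney minus MHCIIlo at 2.03 and 2.15, all called. The 3 probes lie in order along the plus strand of chromosome 8 (mm8, the build of the array annotation) at 48033237-48033296, 48033545-48033604 and 48034695-48034754, within 1 gene. Exon and UTR positions on mm8 were not assigned here.

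Cpt1a, the outer-membrane transferase that sets the pace of long-chain fatty acid entry and is inhibited by malonyl-CoA, was the only one of the 8 genes besides Acot1 to be called in all 3 comparisons. Its level was 3.50, 3.42 and 3.10 for MHCIIhi 1 to 3, 2.81, 1.94 and 1.97 for MHCIIlo 1 to 3 and 4.47, 4.17 and 4.50 for kidney 1 to 3. The 3 groups did not overlap and ran kidney, MHCIIhi, MHCIIlo from high to low, with MHCIIlo 1 nearest to MHCIIhi. MHCIIhi exceeded MHCIIlo by 1.1 ± 0.26 (SE; 2.14-fold; limma adjusted p = 0.00970), and kidney exceeded MHCIIhi by 1.04 ± 0.26 (adjusted p = 0.00673) and MHCIIlo by 2.14 ± 0.26 (4.42-fold; adjusted p = 7.89e-05). The first 2 of these differences sit near the size threshold of 1. Without MHCIIlo 2 or MHCIIlo 3 the intestinal difference fell to 0.95 or 0.97, and without MHCIIhi 3, kidney 1 or kidney 3 the difference between kidney and MHCIIhi was 0.92, 0.998 or 0.99, which ended those calls. With slide as a fixed block, which sets MHCIIhi 3 alone against the 3 MHCIIlo arrays, the intestinal difference was 0.86 (adjusted p = 0.168, the highest of 0.00162 to 0.168 over the alternatives).

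The array holds 2 Cpt1a probes on the plus strand of chromosome 19 (mm8), at 3384629-3384688 and 3385374-3385433. The brighter, at the second position, was printed in 10 spots and was used for the values above. Its spots agreed within an SD of 0.03 to 0.09 on each array, well under the spread between replicates. The other probe, printed once, ran in the same direction in all 3 comparisons. Its MHCIIhi minus MHCIIlo difference was 0.81 ± 0.29 (limma adjusted p = 0.0463) and its kidney minus MHCIIhi difference 0.92 ± 0.29 (adjusted p = 0.0217), both short of the size threshold, and on it MHCIIhi 3 (0.27) lay below MHCIIlo 1 (0.40). Against MHCIIlo its kidney difference was 1.73 ± 0.29 (adjusted p = 0.000601) and was called. The calls on Cpt1a within the intestine and between kidney and MHCIIhi thus rest on the brighter probe.

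**Figure D2:**
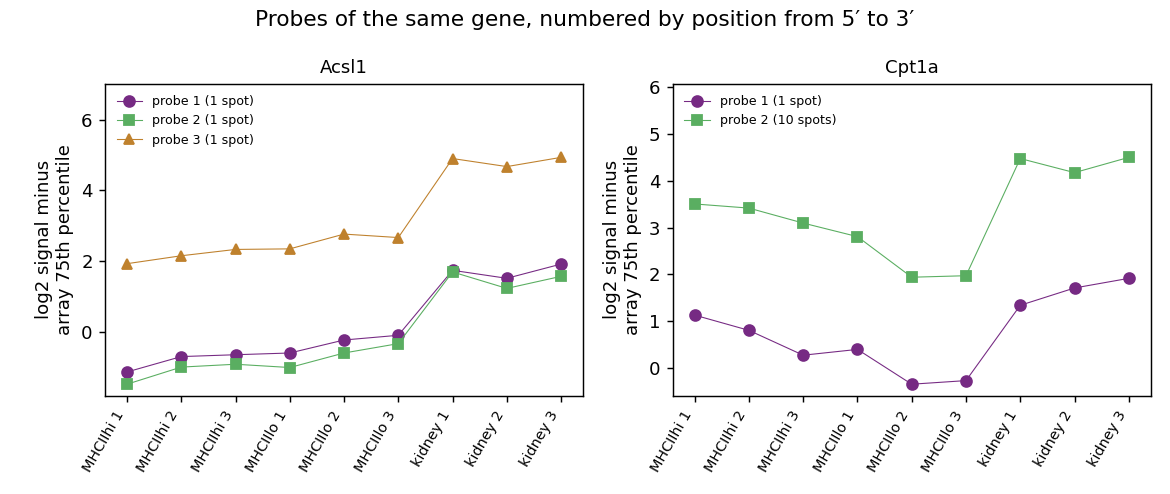
Level of every probe of the 2 genes with more than 1 probe, in log2 units above the 75th percentile of the array, on the 9 arrays named on the horizontal axis. Each line is 1 probe, numbered from 5′ to 3′, and lines join the arrays only to guide the eye. The 3 Acsl1 probes rise together in kidney, and both Cpt1a probes are lowest on MHCIIlo 2 and 3, at 1.94 and 1.97 for the probe with 10 spots.

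Cpt2, the inner-membrane transferase that returns the acyl group to CoA inside the mitochondrion, was highest in MHCIIlo and lowest in kidney. Cpt2 stood at 4.68, 4.48 and 4.94 for MHCIIhi 1 to 3, 5.42, 5.53 and 5.73 for MHCIIlo 1 to 3 and 4.36, 3.83 and 3.83 for kidney 1 to 3. No groups overlapped. Kidney was 2.93-fold below MHCIIlo (-1.55 ± 0.21, SE; limma adjusted p = 0.000161). MHCIIhi minus MHCIIlo was -0.86 ± 0.21 (adjusted p = 0.0112) and kidney minus MHCIIhi -0.69 ± 0.21 (adjusted p = 0.0179), so both passed the p threshold without reaching the size. With quantile normalization between arrays the difference between kidney and MHCIIlo shrank to -0.74 and was no longer called. The single probe lies on the minus strand of chromosome 4 at 107401950-107402010 (mm8).

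Acadm, the medium-chain acyl-CoA dehydrogenase, and Acadl, the long-chain one, were both called higher in kidney than in MHCIIhi. Acadm stood at 3.35, 3.39 and 3.78 for MHCIIhi 1 to 3, 4.31, 4.48 and 4.37 for MHCIIlo 1 to 3 and 6.53, 4.66 and 5.06 for kidney 1 to 3. The groups did not overlap, but kidney 1 stood well above the other kidney arrays. The excess of kidney over MHCIIhi was 1.91 ± 0.42 (SE; 3.77-fold; limma adjusted p = 0.00339). Over MHCIIlo it was 1.03 ± 0.42 with a 95% interval of 0.08 to 1.98 (adjusted p = 0.0505), which narrowly missed the threshold and passed it under several alternatives (adjusted p between 0.00279 and 0.121 over all of them). Without kidney 1 these differences were 1.36 and 0.48. MHCIIhi minus MHCIIlo was -0.88 ± 0.42 (adjusted p = 0.105), in a fit whose shared spread includes the kidney arrays. The kidney SD was 0.98 beside 0.24 in MHCIIhi and 0.08 in MHCIIlo. On the intestinal arrays alone the difference was -0.88 ± 0.19 (limma adjusted p = 0.0120, the lowest over the alternatives). That passed the p threshold without reaching the size. The Acadm probe lies on the minus strand of chromosome 3 at 153860092-153860151 (mm8).

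Acadl did not distinguish the intestinal groups. Its level was 1.57, 0.99 and 1.31 for MHCIIhi 1 to 3, 1.55, 1.20 and 0.91 for MHCIIlo 1 to 3 and 3.06, 2.40 and 2.54 for kidney 1 to 3. Both intestinal groups covered nearly the same range, and all kidney arrays lay above them. MHCIIhi minus MHCIIlo was 0.07 ± 0.26 (SE), with a 95% interval of -0.51 to 0.65 (limma adjusted p = 0.831). Kidney exceeded MHCIIhi by 1.38 ± 0.26 (2.60-fold; adjusted p = 0.00135) and MHCIIlo by 1.45 ± 0.26 (2.73-fold; adjusted p = 0.000803). The Acadl probe lies on the minus strand of chromosome 1 at 66764307-66764366 (mm8).

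Ehhadh, the peroxisomal bifunctional enzyme that carries out the hydratase and dehydrogenase steps, showed the widest spread within a group. It stood at 1.07, 1.24 and 1.94 for MHCIIhi 1 to 3, 2.51, 2.98 and 3.07 for MHCIIlo 1 to 3 and 3.56, 0.76 and 1.04 for kidney 1 to 3. The MHCIIlo arrays lay above all MHCIIhi arrays, whereas kidney held both the highest and the lowest values of the 9. The difference MHCIIhi minus MHCIIlo was -1.43 ± 0.65 (SE; limma adjusted p = 0.0948), past the size but not the p threshold. The fit shares 1 estimate of the spread over the 3 groups, and the kidney SD was 1.54 beside 0.46 in MHCIIhi and 0.30 in MHCIIlo. On the 6 intestinal arrays alone the same difference was called, with an adjusted p of 0.00939 (0.00939 to 0.533 over the alternatives). Kidney minus MHCIIhi was 0.37 ± 0.65 (adjusted p = 0.644) and kidney minus MHCIIlo -1.06 ± 0.65 (adjusted p = 0.169). Without kidney 1 they were -0.52 (adjusted p = 0.187; 0.187 to 0.844 over the alternatives) and -1.95 (adjusted p = 0.000881; 0.000881 to 0.481), so the sign of the first turned and the second was called lower. The Ehhadh probe lies on the minus strand of chromosome 16 at 21675824-21675883 (mm8).

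Acot1, a cytosolic thioesterase that hydrolyses long-chain acyl-CoA, separated the intestinal groups more than any other of the 8 genes. It stood at 1.70, 0.84 and 0.72 for MHCIIhi 1 to 3, -2.01, -3.70 and -2.59 for MHCIIlo 1 to 3 and 3.85, 2.09 and 2.45 for kidney 1 to 3. The 3 groups did not overlap, with MHCIIlo far below the others and kidney highest. MHCIIhi exceeded MHCIIlo by 3.85 ± 0.55 (SE; 14.4-fold; limma adjusted p = 0.00136), and the call was kept under all 20 alternatives, with differences of 2.06 (normexp background correction) to 4.23. With slide as a fixed block it was 3.48 (adjusted p = 0.0383; 0.000370 to 0.0383 over the alternatives). Kidney exceeded MHCIIlo by 5.56 ± 0.55 (47.3-fold; adjusted p = 2.37e-05) and MHCIIhi by 1.71 ± 0.55 (3.27-fold; adjusted p = 0.0236). The last call was lost without kidney 1 (1.18, adjusted p = 0.0795), MHCIIhi 2 (1.59, adjusted p = 0.0649) or MHCIIhi 3 (1.53, adjusted p = 0.0673), and with slide as a random block (1.74, adjusted p = 0.0683), within 0.00108 to 0.0795 over the alternatives.

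The Acot1 probe lies on the plus strand of chromosome 12 at 84907250-84907309 (mm8). Acot1 has a close paralog, Acot2, which works in mitochondria, and the probe may also bind its transcript, which was not tested. The assignment of the signal to Acot1 alone is therefore uncertain. The probe annotated to Acot2 was well above background on all MHCIIhi and kidney arrays but on only 1 MHCIIlo array. Kidney minus MHCIIhi was 3.25 ± 0.30 (SE) on that probe (limma adjusted p = 1.85e-05).

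Pdk4, a kinase that shuts off pyruvate dehydrogenase in fasting, was far higher in kidney than in either intestinal group. It stood at -0.62, -1.73 and -1.69 for MHCIIhi 1 to 3, -1.13, -3.37 and -0.80 for MHCIIlo 1 to 3 and 2.69, 2.43 and 3.07 for kidney 1 to 3. The intestinal groups overlapped, with MHCIIlo 2 lowest of all, and the kidney arrays were far above and close together. Kidney exceeded MHCIIhi by 4.08 ± 0.63 (SE; 16.9-fold; limma adjusted p = 0.000438) and MHCIIlo by 4.50 ± 0.63 (22.6-fold; adjusted p = 0.000190). Within the intestine the difference was 0.42 ± 0.63 with a 95% interval of -1.0 to 1.84 (adjusted p = 0.593). Its sign turned without MHCIIlo 2 (-0.38). The Pdk4 probe lies on the minus strand of chromosome 6 at 5433441-5433500 (mm8).

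**Figure D3:**
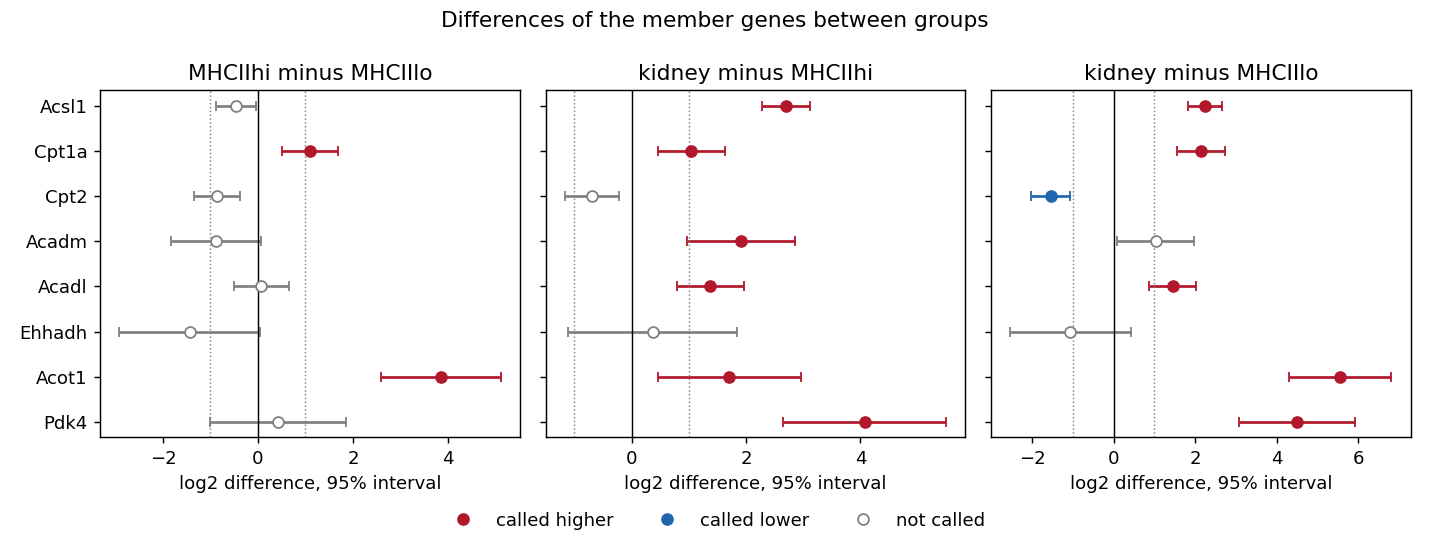
Log2 difference of each of the 8 genes in the 3 comparisons, with limma's 95% interval as bars and dotted lines at a size of 1. Filled red points were called higher, filled blue points lower, and open points were not called. Pdk4 (4.08 and 4.50) and Acsl1 (2.70 and 2.25) lie to the right in both kidney comparisons, and Acot1 lies to the right in all 3.

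The kidney arrays were not alike for these genes. Kidney 1 exceeded the mean of kidney 2 and 3 by 2.66 for Ehhadh, 1.66 for Acadm and 1.58 for Acot1, differences larger than those of 99.5%, 98.9% and 98.7% of genes measured on all kidney arrays. Acadl (0.59) and Cpt2 (0.53) were also higher on kidney 1, whereas Cpt1a (0.14), Acsl1 (0.10) and Pdk4 (-0.06) were nearly level. Of 12 proximal tubule markers 8 were higher on kidney 1, with a median difference of 1.17 and a range of -2.78 (Slc7a13) to 3.35 (Cubn, an endocytic receptor), and Lrp2, the partner receptor megalin, differed by 2.65. The summed level of the 12 was 395 on kidney 1 and 120.7 and 104.8 on kidney 2 and 3. Most of that sum comes from 1 marker, Kap, at 8.22, 6.29 and 6.17 (log2) on kidney 1 to 3. Slc34a1 (-0.02), Slc5a2 (-0.21), Slc5a12 (-0.82) and Slc7a13 were level or lower on kidney 1. Of the 7 enterocyte markers measured on all kidney arrays, 4 were higher on kidney 1 and the rest lower (median 1.20, range -0.40 to 2.51). The 4 were Apob (2.51), Slc2a5 (2.05), Vil1 (1.58) and Anpep (1.20). Having signal on every kidney array, these genes are not specific to the intestine here. The median of the 8 markers of the thick ascending limb and distal tubule was -0.37 and that of the 10 collecting duct markers 0.04. Markers of endothelium and podocytes were lower on kidney 1 for 7 of 7 measured (median -0.96, range -1.50 to -0.52), and those of macrophages and dendritic cells for 5 of 5 (median -0.19). In such bulk samples fewer cells of a type and less RNA per cell cannot be told apart, and the part of the cell mix in the spread of Ehhadh, Acadm and Acot1 was not tested.

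**Figure D4:**
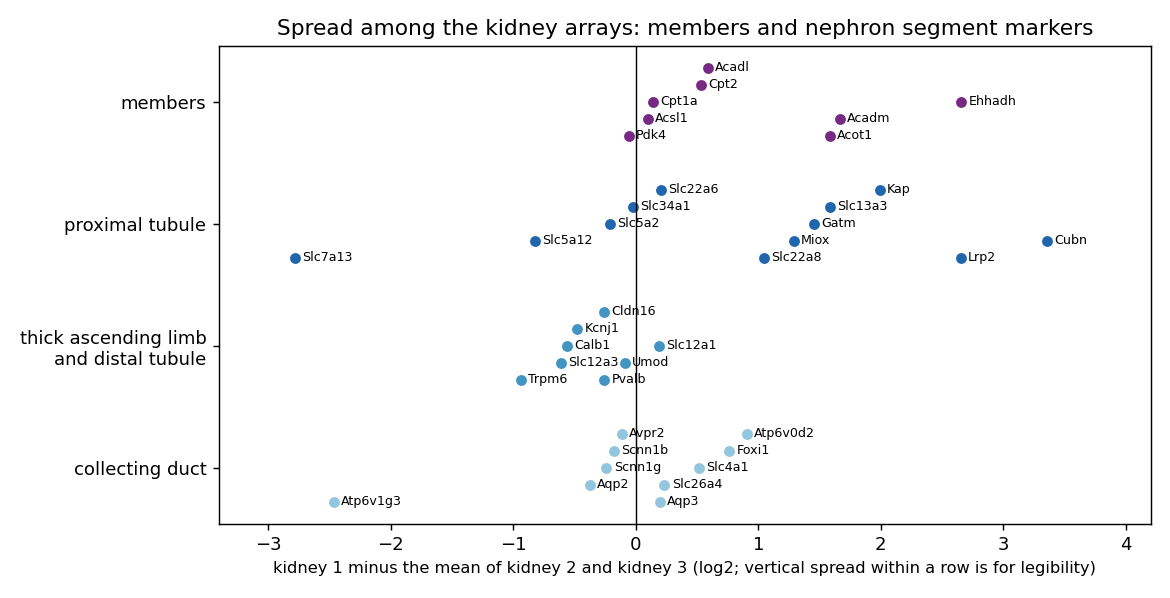
Log2 level on kidney 1 minus the mean of kidney 2 and kidney 3, 1 point a gene, for the 8 genes and for markers of 3 parts of the nephron. Points right of the line at 0 are higher on kidney 1, and height within a row has no meaning. Ehhadh (2.66), Acadm (1.66) and Acot1 (1.58) are the highest of the 8 genes. The 12 proximal tubule markers run from -2.78 (Slc7a13) to 3.35 (Cubn), a range wide enough to hold all 8 genes. The markers of the thick ascending limb and distal tubule lie between -0.94 and 0.19, and those of the collecting duct between -2.46 and 0.91.

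Within the intestine the marker lists moved as well. Of the 13 enterocyte markers 11 were lower and 0 higher in MHCIIhi, with a median of -1.72. Markers of crypt stem and dividing cells were higher for 9 of 10 (median 4.31) and those of Paneth and goblet cells for 6 of 8 (median 1.92). The summed level of the 10 crypt markers was 54.1 to 101 in MHCIIhi and 8.80 to 15.7 in MHCIIlo. Lymphocyte and plasma cell markers were lower in MHCIIhi for 7 of 11, with a summed level of 1.78 to 4.31 in MHCIIhi and 25.7 to 44.2 in MHCIIlo. Among the MHCIIhi arrays, MHCIIhi 3 had the highest enterocyte sum (2458 beside 1316 and 1066) and lay nearest to MHCIIlo for Acsl1, Cpt1a, Cpt2, Acadm, Ehhadh and Acot1. MHCIIhi 3 is also the only MHCIIhi array on the slide of the MHCIIlo arrays, so slide and cell mix cannot be told apart here. The part of these cell types in the differences between the intestinal groups was not tested.

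The other genes of the pathway were taken from lists by role, 90 genes in all beside the 8, of which 87 could be tested. Bbox1, which makes carnitine, and Abcd2, a peroxisomal transporter, were too dim in every group, and Pdp2, a pyruvate dehydrogenase phosphatase, had no probe assigned here. In MHCIIhi against MHCIIlo, 4 of the 87 were higher (4.6%, beside 14.9% of all genes) and 26 lower (29.9%, beside 16.1%), with a median of -0.71. In kidney against MHCIIhi, 30 were higher (34.5%, beside 25.6%) and 13 lower (14.9%, beside 22.8%), with a median of 0.56. In kidney against MHCIIlo, 26 were higher (29.9%) and 25 lower (28.7%), near the 29.8% and 27.8% of all genes, with a median of -0.04. The count of 26 lower genes in MHCIIhi ran from 15, without MHCIIhi 2, to 33 (without MHCIIhi 3) with 1 array left out. It was 14 with quantile normalization, 15 with normexp, 16 with slide as a random block and 2 with slide as a fixed block, a fit that compares 1 MHCIIhi array with 3 of MHCIIlo.

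Peroxisomal beta-oxidation held the most genes that were lower in MHCIIhi, 9 of 15 tested with 0 higher. The largest differences were those of Acaa1b (-2.03 ± 0.37, SE) and Acaa1a (-1.52 ± 0.29), peroxisomal thiolases, Scp2 (-1.56 ± 0.24), a sterol carrier with thiolase activity, and Decr2 (-1.43 ± 0.29), a dienoyl-CoA reductase (limma adjusted p = 0.00363, 0.00418, 0.00188 and 0.00545). Kidney was lower than MHCIIlo for 7 of the 15, among them Acaa1a (-2.25 ± 0.29), Scp2 (-2.25 ± 0.24) and Decr2 (-2.13 ± 0.29), and higher for 1. Against MHCIIhi kidney was higher for 3, Hacl1 (1.96 ± 0.39, on 2 of 3 MHCIIhi arrays above background), Phyh (1.49 ± 0.20) and Amacr (1.13 ± 0.23), which act on branched-chain fatty acids, and lower for 0. The 9 genes became 5 with quantile normalization, 5 with normexp background correction and 1 with slide as a fixed block. With quantile normalization kidney was higher for 5 against MHCIIhi and for 4 against MHCIIlo.

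In the carnitine shuttle and its supply, 4 of 8 tested genes were lower in MHCIIhi and 0 higher. They were Crat (-1.54 ± 0.30, SE), a short-chain carnitine acyltransferase, Cpt1b (-1.49 ± 0.35), the muscle-type counterpart of Cpt1a, Crot (-1.06 ± 0.26), the peroxisomal octanoyltransferase, and Aldh9a1 (-1.06 ± 0.36), of carnitine synthesis (limma adjusted p = 0.00471, 0.00995, 0.0108 and 0.0367). The 4 became 2 without MHCIIhi 2, with normexp or with quantile normalization, 0 with slide as a fixed block and 8 with no size threshold. Cpt1a lay on the other side, higher in MHCIIhi. Cpt1b was higher in kidney by 3.37 ± 0.35 over MHCIIhi and by 1.89 ± 0.35 over MHCIIlo, and Slc22a5, the carnitine importer, was lower by -1.79 ± 0.22 and -2.78 ± 0.22. Kidney was higher for 4 and lower for 2 against MHCIIhi (1 lower without kidney 2 or kidney 3), and higher for 2 and lower for 3 against MHCIIlo.

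Among 17 genes of mitochondrial beta-oxidation beside Acadm and Acadl, 1 was higher in MHCIIhi and 4 were lower. Acadsb, which acts on short branched chains, was the higher one (1.40 ± 0.33, SE), and Hadh (-1.26 ± 0.21), Etfb (-1.06 ± 0.23) and Acad11 (-1.05 ± 0.23) were among the lower ones (limma adjusted p = 0.00938, 0.00243, 0.00677 and 0.00793). The 4 lower genes became 1 without MHCIIhi 2, 2 without MHCIIhi 1 or MHCIIlo 3, 1 with normexp, quantile normalization or slide as a random block, and 0 with slide as a fixed block. Kidney was higher for 5 (9 with quantile normalization) and lower for 1 against MHCIIhi, and higher for 6 and lower for 1 against MHCIIlo. Acadsb led both, by 4.07 ± 0.33 and 5.47 ± 0.33, and Hadhb, a subunit of the trifunctional protein, was higher by 1.39 ± 0.18 and 1.25 ± 0.18. Hadh, the hydroxyacyl-CoA dehydrogenase, was the gene called lower than in MHCIIlo, by -2.43 ± 0.21. Most genes of the list, 11 of 17 against MHCIIhi and 10 of 17 against MHCIIlo, passed in neither direction.

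For uptake and activation, 3 of 8 genes were lower in MHCIIhi and 0 higher (1 higher without MHCIIhi 3 or MHCIIlo 3). They were the fatty acid receptor and carrier Cd36 (-2.55 ± 0.39, SE), the transport protein Slc27a4 (-1.87 ± 0.38) and the synthetase Acsl5 (-1.63 ± 0.34), with limma adjusted p = 0.00177, 0.00572 and 0.00573. Acsl4 was higher in kidney by 5.43 ± 0.18 over MHCIIhi and 5.14 ± 0.18 over MHCIIlo, and Slc27a1 by 3.16 ± 0.19 and 4.12 ± 0.19. Slc27a4 was lower by -2.02 ± 0.38 and -3.89 ± 0.38, and Acsl5 was lower than in MHCIIlo by -2.71 ± 0.34. Acsl1 itself did not pass within the intestine.

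Of 11 other thioesterases tested, 1 was called higher in MHCIIhi and 1 lower. The higher one was Acot6, which was not well above background on any MHCIIlo array and was at least 1.73-fold higher in MHCIIhi (limma adjusted p = 0.00599). It falls outside the naming rule and was named after its values were seen. The lower one was Acot4 (-1.44 ± 0.52, SE; limma adjusted p = 0.0467), a peroxisomal succinyl-CoA thioesterase. Over the 14 alternatives other than leaving out an array, the count of lower genes ran from 0 to 5 and differed from 1 in 10. That of higher genes was 0 in 4 of the 14. The count of lower genes was 3 without MHCIIhi 3 and 0 without MHCIIhi 1, MHCIIhi 2, MHCIIlo 2 or MHCIIlo 3, that of higher genes was 2 without MHCIIlo 1, and with slide as a fixed block both were 0. Kidney was higher than MHCIIhi for 4 of 11, among them Acot6 (3.43 ± 0.39) and Acot2, and lower for 2, Acot7 (-2.05 ± 0.35) and Acot4 (-1.81 ± 0.52), with 1 lower without kidney 2 or kidney 3. Kidney was higher than MHCIIlo for 3 and lower for 3, the latter being Acot4 (-3.25 ± 0.52), Acot7 (-2.03 ± 0.35) and Acot8 (-1.59 ± 0.14).

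Of 9 genes of the pyruvate dehydrogenase complex and its regulators tested beside Pdk4, limma called 0 in either direction between the intestinal groups, where 3 were higher and 1 lower in MHCIIhi at an unadjusted p under 0.05. Without MHCIIhi 3 or MHCIIlo 1, 1 was called lower. In kidney 4 were higher than in MHCIIhi and 6 higher than in MHCIIlo, with 0 lower in both. The kinases Pdk1 (2.44 ± 0.25 and 2.55 ± 0.25, SE) and Pdk2 (2.07 ± 0.30 and 1.19 ± 0.30) rose beside Pdk4, and so did the complex subunits Dlat (1.44 ± 0.18 and 1.93 ± 0.18) and Dld (1.08 ± 0.18 and 1.13 ± 0.18). Their limma adjusted p was 0.00572 or less in each case.

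Among 12 genes of transcriptional and malonyl-CoA control, 1 was higher in MHCIIhi and 5 were lower. The lower genes included Ppargc1a (-1.93 ± 0.54, SE), a coactivator of mitochondrial genes, Mlycd (-1.22 ± 0.24), which removes malonyl-CoA, the deacetylase Sirt3 (-1.18 ± 0.30) and the receptor Ppard (-1.16 ± 0.33), with limma adjusted p = 0.0184, 0.00480, 0.0124 and 0.0195. The 5 became 2 without MHCIIhi 2 or MHCIIlo 3, 3 without MHCIIhi 1 or MHCIIlo 2, 2 with normexp, quantile normalization or slide as a random block, and 0 with slide as a fixed block. The intestinal arrays overlapped for Ppargc1a. Acacb, the carboxylase that makes the malonyl-CoA that inhibits Cpt1 enzymes, was higher in kidney than in MHCIIhi by 4.05 ± 0.31. Hnf4a was lower in kidney by -4.05 ± 0.61 and -4.31 ± 0.61, and Ppard by -2.21 ± 0.33 and -3.37 ± 0.33. Kidney was higher for 3 and lower for 5 against MHCIIhi, and higher for 1 and lower for 7 against MHCIIlo.

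**Figure D5:**
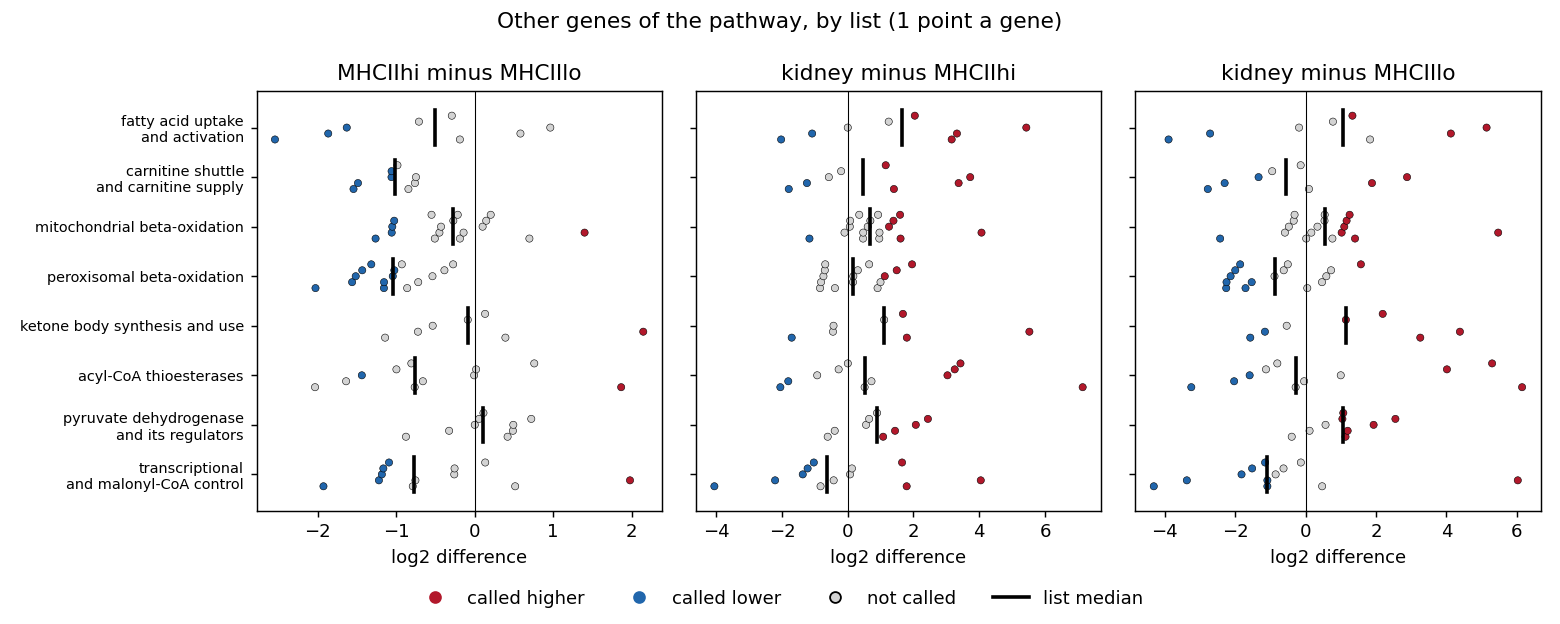
Log2 difference of the 87 tested pathway genes beside the 8, grouped by role, in the 3 comparisons. Each point is 1 gene, red if called higher, blue if called lower and grey if not called, and the black bar is the median of the list. The peroxisomal genes have medians of -1.04, 0.17 and -0.88 from left to right, and the pyruvate dehydrogenase genes 0.11, 0.89 and 1.07.

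Of 7 ketone body genes tested, of which 5 are described, limma called 1 higher and 0 lower in MHCIIhi than in MHCIIlo (1 higher and 2 lower at an unadjusted p under 0.05). The higher call was lost without MHCIIhi 1, MHCIIhi 3, MHCIIlo 1 or MHCIIlo 2, and 1 gene was called lower without MHCIIhi 3 or MHCIIlo 1. Of the 14 alternatives other than leaving out an array, 8 lost the higher call and 5 called 1 gene lower. In the kidney comparisons 3 were higher and 1 lower in kidney than in MHCIIhi, and 4 were higher and 2 lower than in MHCIIlo (1 lower without kidney 2 or kidney 3). Oxct1, the transferase that commits ketone bodies to oxidation, stood at 7.17, 7.01 and 7.20 in kidney, above all intestinal arrays, and exceeded MHCIIhi by 1.68 ± 0.25 (SE; limma adjusted p = 0.000407) and MHCIIlo by 1.14 ± 0.25 (adjusted p = 0.00309). Acat1, the mitochondrial thiolase that serves both directions, was higher by 1.80 ± 0.20 and 2.19 ± 0.20, and Bdh2, a cytosolic hydroxybutyrate dehydrogenase, by 5.52 ± 0.43 and 4.38 ± 0.43. Aacs, which draws acetoacetate into lipid synthesis, was lower in kidney by -1.70 ± 0.46 and -1.57 ± 0.46. Bdh1, the mitochondrial hydroxybutyrate dehydrogenase, was not called in any comparison (-0.09 ± 0.30, -0.45 ± 0.30 and -0.54 ± 0.30).

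The patterns of the 8 genes over the 9 arrays, each centred on its own mean, were compared by their root mean square distance in log2 units. Cpt1a and Acadl were closest to each other (0.49), followed by Acadm and Acadl (0.55). Cpt2 and Acot1 were farthest apart (3.01). Among 10844 genes measured on all 9 arrays, the 2 nearest were Gnmt (0.21) and Nat8f1 (0.30) for Acadm, Cbr1 (0.31) and Eci3 (0.40) for Ehhadh, and Kdm4c and Prkaa2 (both 0.17) for Acadl. They were Ybx2 and Zhx3 (both 0.15) for Acsl1, Ankrd39 (0.11) and B3bp (0.12) for Cpt1a, and Vav2 and Prr14 (both 0.09) for Cpt2. Acot1 and Pdk4 had no close neighbour, with Cdo1 (0.54) and Chchd6 (0.57) nearest to Acot1 and Ankrd25 (0.53) and Bace1 (0.58) nearest to Pdk4. These distances describe 9 arrays. Where a pattern is mostly the difference between groups, any gene with similar group means lies near. The patterns of Ehhadh and Acadm also hold the spread among the kidney arrays (SD 1.54 and 0.98).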

How the data were processed

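RNA of 9 pooled samples was measured on single-colour (Cy3) Agilent arrays, scanned and quantified by Agilent Feature Extraction (version 10.5.1.1 in the file headers). What the authors deposited for each spot is a processed intensity, linear, from which the software had already taken local background and spatial trend, per the file headers. It was not normalized between arrays. The scanner's flags, 0 or 1 per spot (well above background, outlier), are used as deposited. The authors' deposited value table also holds intensity: dividing the processed signal of an array by its median gave the column within a relative deviation of 2.37e-05 (column medians of 1, linear, genes not centred). Its method is not stated in any label or header read here.

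Control and outlier spots were left out, spots of a probe were averaged, and log2 signal was set against the array's 75th percentile. Accessions were matched to RefSeq (GRCm38.p6) for names only: 24496 probes matched and 16678 kept the file's name. The brightest probe stood for a gene. The fit took the 19991 genes with every array of 1 group or more well above background, and used limma 3.58.1 in R 4.3.3 on all 9 arrays by group. The code was tested on simulated data. Precision is limited by 3 arrays a group. Of the named genes, the 8 were given by symbol, and from each role list up to 4 called genes per comparison were taken by size, measured on at least 2 of 3 arrays of both groups, with the ketone body list and the 2 nearest neighbours of each of the 8. Acot2 is also described as a paralog. Some genes of these lists are not reported here. The 8 genes, lists and tests were chosen with earlier results of these data known. The labels do not say whether a shared replicate number marks a shared pool, and the main fit did not pair the samples. The deviations of same-numbered MHCIIhi and MHCIIlo arrays correlated at 0.19, -0.35 and 0.28. With 3 arrays a group these values cannot decide whether the samples were paired. Alternatives covered normalization, background, filter, probe choice, prior, blocks, thresholds and leaving out each array. Tables and plots were made in Python 3.11.15 (pandas 2.3.3; matplotlib 3.10.9).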

Additional observations from a re-analysis of the deposited data

How the results depend on the processing

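Over the alternatives, 150 of 160 recomputed differences of the 8 genes for MHCIIhi minus MHCIIlo, 141 of 152 for kidney minus MHCIIhi and 144 of 152 for kidney minus MHCIIlo kept their direction and their side of the threshold. These counts include the authors' value table, which is the same signal rescaled by array. Its results had to equal the main ones and are no check on them. Changes of threshold, filter or prior, the replicate block and the fit on the compared arrays alone also left each difference as it was. In those settings only the call could change, so a kept direction is no check either. The sign turned for Acadl in MHCIIhi minus MHCIIlo without MHCIIhi 1 (-0.07) or MHCIIlo 3 (-0.085; -0.085 to 0.23 with an array left out), for Pdk4 with normexp (-0.14) or without MHCIIlo 2 (-0.38; -0.38 to 0.91), and for Ehhadh in kidney minus MHCIIhi without kidney 1 (-0.52; -0.52 to 0.88). None of these had been called. For MHCIIhi minus MHCIIlo, the genes called higher among the 8 were 1 rather than 2 with every probe by itself, with the mean of a gene's probes and with slide as a fixed block, and 1 to 2 with an array left out. Those called lower were 1 rather than 0 on the 6 arrays alone (Ehhadh) and with no size threshold (Cpt2). For kidney minus MHCIIhi, 1 was lower with no size threshold, and the 6 called higher were 4 without MHCIIhi 3 or kidney 1 and 5 without MHCIIhi 2 or kidney 3, at an adjusted p below 0.01, with every probe by itself, with the mean of probes and with slide as a random block. For kidney minus MHCIIlo, 0 were lower with quantile normalization, and 1 to 2 with an array left out, the second being Ehhadh without kidney 1. Genes called in MHCIIhi minus MHCIIlo numbered 6196, and 4116 at an adjusted p below 0.01, 10010 with no size threshold, 2962 with normexp, 1683 with slide as a fixed block and 4024 with a filter on all 9 arrays. With that filter, which tests fewer genes, 5445 were called in kidney minus MHCIIhi (9679 otherwise) and 7018 in kidney minus MHCIIlo (11514), and with no filter 17738 in the latter. With the replicate number as a block, 6143, 9637 and 11488 genes were called, and no call on the 8 genes changed. Of called genes, 48, 52.9 and 51.7% were higher in the 3 comparisons, and 48.5, 39.7 and 26.9% with normexp, where the medians of all genes moved to -0.50, -0.35 and -0.61. Other causes of these shifts were not tested. A dim probe limits Acot2 in MHCIIlo, where 1 of 3 arrays was well above background.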

Other observations

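Targets of PPAR receptors outside oxidation gave 1 gene higher and 4 lower in MHCIIhi of 10 tested, the lower ones being Fabp1, a fatty acid binding protein of enterocytes (-2.54 ± 0.76, SE), Angptl4, an inhibitor of lipoprotein lipase (-2.10 ± 0.70), the transcription factor Creb3l3 (-2.03 ± 0.53) and the fatty acid hydroxylase Cyp4a10 (-1.87 ± 0.50), with limma adjusted p = 0.0239, 0.0343, 0.0140 and 0.0155. The 4 became 0 without MHCIIhi 2 and with slide as a fixed block, 1 without MHCIIhi 1 or MHCIIlo 2 and 2 without MHCIIlo 3. In kidney Fabp3, the heart-type binding protein, was higher by 8.71 ± 0.49 than in MHCIIhi and by 8.54 ± 0.49 than in MHCIIlo, and Creb3l3 was lower by -7.14 ± 0.53 and -9.17 ± 0.53. Kidney was higher for 2 and lower for 3 of the 10 against MHCIIhi, and higher for 4 and lower for 5 against MHCIIlo. The 1 gene called higher in MHCIIhi lost its call in 4 of 6 fits with an array left out and in 8 of the 14 other alternatives. Fgf21 and Ucp3 were too dim to test.

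Of 10 genes of fatty acid synthesis, 0 were higher and 1 was lower in MHCIIhi, Mlxipl, a glucose-sensing transcription factor (-1.31 ± 0.29, SE; limma adjusted p = 0.00782). Kidney was lower than MHCIIhi for Mlxipl (-3.69 ± 0.29) and for Fasn, the fatty acid synthase (-1.80 ± 0.31), and higher for 2 genes of the list.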
